A study of Homo sapiens with 9 samples.

Results

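The mRNAs of the platelet-derived growth factor (PDGF) family were followed in protruding and non-protruding parts of hTERT-MSC, a line of mesenchymal stem cells from human adipose tissue that was immortalised with telomerase. The members were the 7 genes with the symbols PDGFRA, PDGFRB, PDGFRL, PDGFA, PDGFB, PDGFC and PDGFD, of 62709 genes with values in the count table. They were chosen by gene family and not by a measured value, although earlier results of these data were known. All 7 passed the filter on low counts, PDGFB through the pseudopodia and cell body libraries, since it had 1 read in the 3 whole-cell libraries together.

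Bulk RNA sequencing was done on 3 libraries of pseudopodia, 3 of cell bodies and 3 of whole cells. In all 3 groups the cells had been starved of serum overnight, had attached for 2 h to inserts with pores of 3 µm and no matrix coating, and had then been given 50 ng/mL PDGF-BB in the well below for 1 h. Pseudopodia, the processes that had passed through the pores, were scraped from the lower face of the membrane, and cell bodies were afterwards scraped from the upper face. Whole cells have the same treatment in their labels, which do not describe how they were collected. No library without PDGF-BB was analysed here, so every difference is between pseudopodia, cell bodies and whole cells that were all treated. The response to the ligand was not measured. The cells are 1 line, and no label says whether replicates were separate cultures. The p-values therefore cover only the spread among these samples, and that spread may be technical. These are bulk values relative to each library's total, in which fewer cells of a type and less RNA per cell cannot be told apart.

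PDGFs are dimeric growth factors that draw mesenchymal cells and make them divide. They bind 2 receptor tyrosine kinases at the cell surface, which pair up, phosphorylate each other and recruit adaptors with SH2 domains that start the PI3 kinase, phospholipase C gamma, SRC and RAS pathways. PDGFRA (receptor alpha) binds the A, B and C chains, and PDGFRB (receptor beta) binds B and D. The A and B chains are matured inside the cell by furin-like convertases, while the C and D chains are secreted with a CUB domain that plasminogen activators remove outside the cell. PDGFRL (PDGF receptor like) resembles the outer part of a receptor and has no kinase domain. Mesenchymal stem cells, fibroblasts and pericytes are known for both receptors, and platelets and endothelial cells for PDGF-B. The ligand added to the wells was a protein, so it does not enter the RNA values.

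Library totals ran from 55469030 to 83894938 counts. Replicates varied most in pseudopodia (biological coefficient of variation 32%), less in cell body (17.6%) and least in whole cell (5.08%), while the fit used 1 spread per gene over all groups. The 10 mRNAs listed as protrusion markers summed to 5810 to 6083 TPM (a level per length of transcript, scaled to the same sum in every library) in pseudopodia, 655.8 to 758.1 TPM in cell body and 861.8 to 911.1 TPM in whole cell, and 9 of the 10 were higher in pseudopodia than in cell body. All 5 mesenchymal stem cell surface markers (THY1, NT5E, ENG, CD44 and ALCAM) were found in every library, and the 5 fell in pseudopodia against cell body. Their sum was 541.3 to 591.2 TPM in pseudopodia, 1598 to 1767 TPM in cell body and 1466 to 1521 TPM in whole cell, and its part in the results on the PDGF family was not tested. The 4 nuclear lncRNAs summed to 39.75 to 45.4 TPM in pseudopodia, 80.95 to 110.1 TPM in cell body and 203.6 to 219.2 TPM in whole cell, and their part was not tested either.

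The beta receptor was the most abundant mRNA of the family in every group. PDGFRB averaged 447.7 ± 65.5 TPM in pseudopodia, 960.4 ± 158 TPM in cell body and 738.1 ± 30.1 TPM in whole cell (SD, n = 3 each). PDGFRA was next in every group. Below the receptors the order depended on the group. In pseudopodia it ran PDGFA, PDGFC, PDGFD, PDGFRL and PDGFB by mean TPM, and the libraries of PDGFD (mean 1.62 TPM) and PDGFRL (mean 0.937 TPM) overlapped while all other neighbours in the order did not. In cell body PDGFC (17.6 TPM) stood above PDGFA (15.5 TPM) with overlapping libraries, followed by PDGFD (5.72 TPM) and PDGFRL (4.34 TPM), which also overlapped, and by PDGFB. In whole cell the order was PDGFC, PDGFA, PDGFD, PDGFRL and PDGFB, and no neighbours overlapped. PDGFB, the chain that makes up the added ligand, was last in all 3 groups with means of 0.252 TPM in pseudopodia, 0.260 TPM in cell body and 0.00622 TPM in whole cell.

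**Figure D1:**
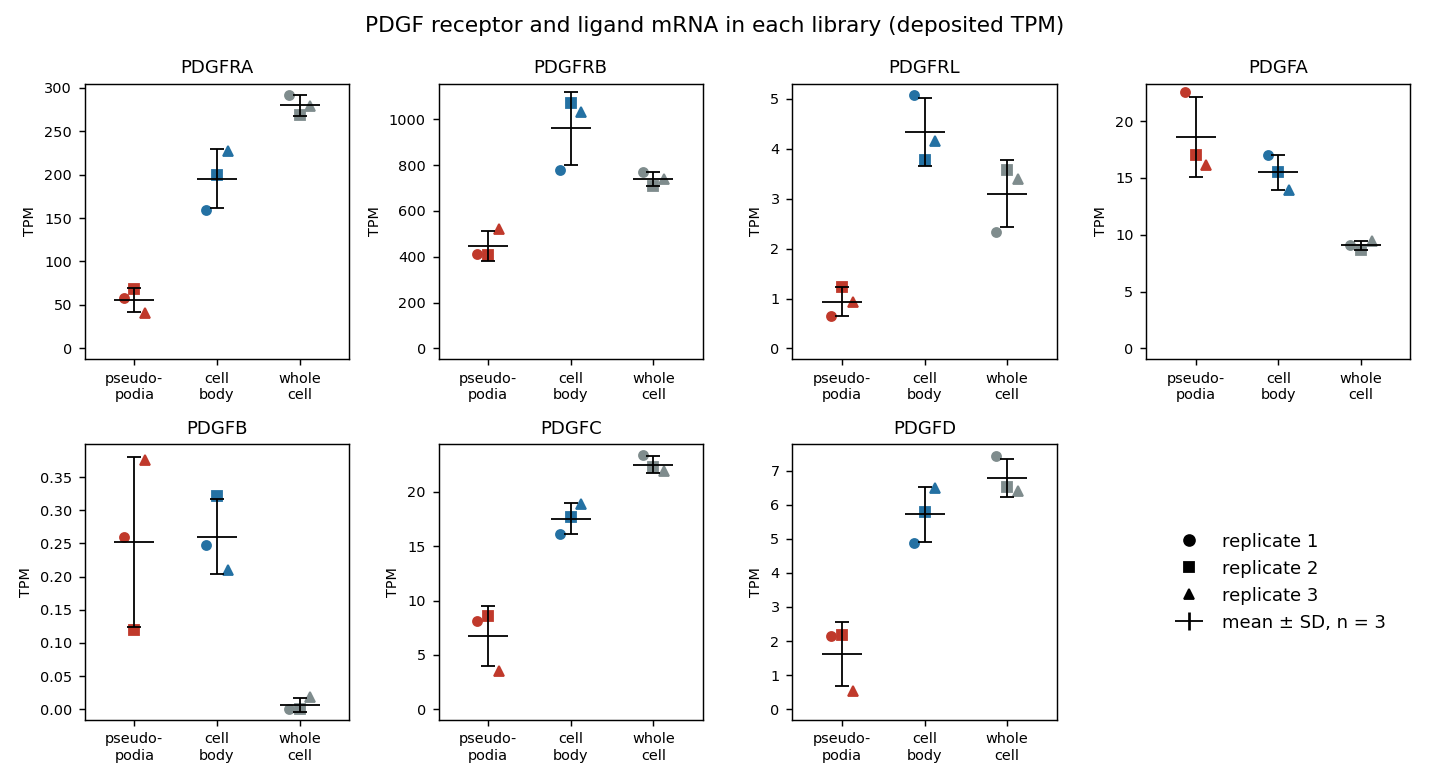
Deposited TPM of the 7 genes in each library of pseudopodia, cell body and whole cell (points, shaped by replicate number), with the mean and SD of 3 libraries (black). PDGFRA, PDGFRB, PDGFRL, PDGFC and PDGFD are lowest in pseudopodia, PDGFA is lowest in whole cell, and PDGFB is at or near 0 in whole cell.

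The comparison of pseudopodia with cell bodies sets the part of a cell that has crossed the membrane against the part that has stayed above it. Both receptors, the receptor-like gene and the ligands of the CUB class, PDGFC and PDGFD, were lower in pseudopodia, by 1.75-fold (PDGFRB) to 3.80-fold (PDGFRL). The ligand PDGFA was 1.46-fold higher, and PDGFB did not pass the test. In all, 1 member was called higher and 5 lower (edgeR's quasi-likelihood test, adjusted p under 0.05), where 18.6% of the 19426 genes tested were called higher and 19.9% lower. Their median log2 fold change was -1.11, against -0.05 over all genes tested. By CPM (read counts scaled to the same library size), 1 member lay higher in every pseudopodia library than in every cell body library and 5 lay lower, where 22.6% of all genes tested lay higher and 24.5% lower without overlap.

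Against whole cells, PDGFRA, PDGFRL, PDGFC and PDGFD were again lower in pseudopodia, by 2.40-fold (PDGFRL) to 3.67-fold (PDGFRA). PDGFA was 2.82-fold higher, and PDGFB had 55 reads in pseudopodia against 1 in whole cell. PDGFRB did not pass the test. The counts were 2 higher and 4 lower, where 27.9% of genes tested were called higher and 33.1% lower, and the members' median log2 fold change was -1.27 against -0.12 over all genes tested. PDGFB is 1 of the 2 and passed the filter only through groups in which it was high; without it 1 of 6 members was higher and 4 lower, with a median of -1.28. The same counts of 2 and 4 lay outside the range of the whole-cell libraries, where 31.1% of genes tested lay higher and 38.9% lower. This comparison shares the pseudopodia libraries with the one above.

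Cell bodies were also compared with whole cells. PDGFRB was 1.47-fold and PDGFA 1.93-fold higher in cell body, PDGFB had 47 reads there against 1 in whole cell, and the others did not pass the test. The counts were 3 higher and 0 lower, where 18.1% of genes tested were called higher and 20.5% lower, and the median log2 fold change was 0.56 for the members and -0.06 over all genes tested. Without PDGFB, for the reason given above, 2 of 6 were higher and 0 lower, with a median of 0.24. None of the 4 members not called had an unadjusted edgeR p under 0.05 and a negative fold change, and DESeq2 called 4 members higher and 0 lower. limma-voom with sample weights, and edgeR on the 6 cell body and whole-cell libraries alone, each called 4 higher and 1 lower, the lower one being PDGFRA. Without overlap, 4 members lay higher and 2 lower, where 30.0% and 34.9% of genes tested did. PDGFA and PDGFB were thus higher in both parts than in whole cell, so whole cell lay outside the range of the parts for these genes. The cause was not tested. This comparison shares cell body libraries with the first and whole-cell libraries with the second.

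**Figure D2:**
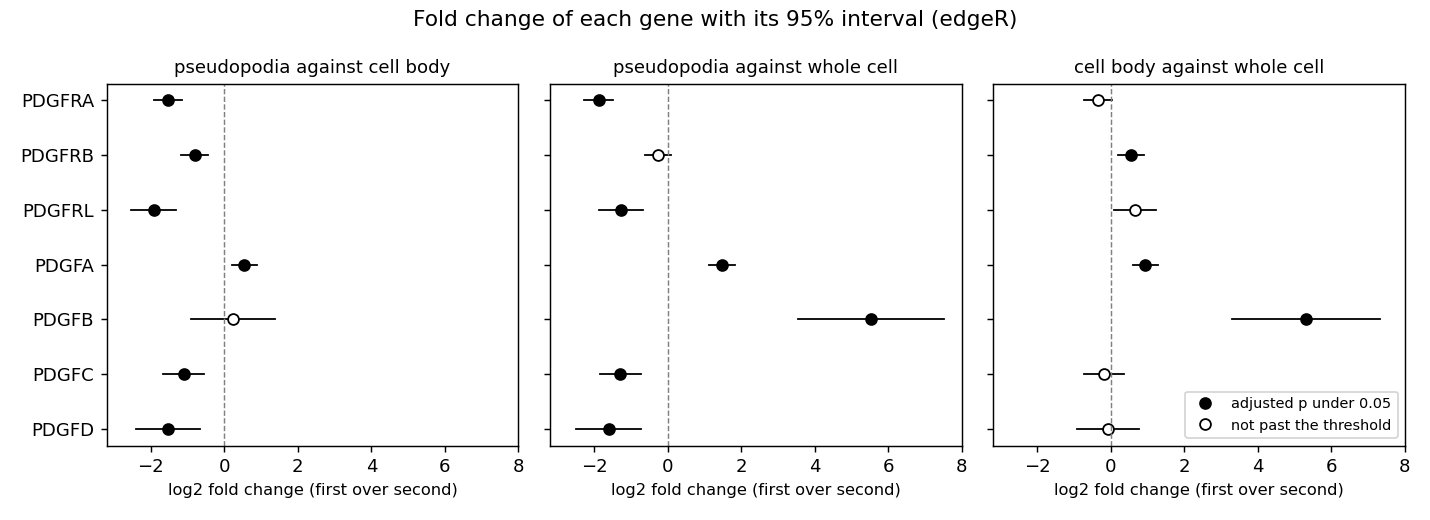
Log2 fold change of each gene in each comparison (points) with its 95% interval (lines), from edgeR. Filled points have an adjusted p under 0.05. Against cell body, 5 genes lie left of 0 and PDGFA right of it, and the PDGFB intervals are wide.

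PDGFRA, the receptor for most PDGF dimers and a marker of mesenchymal progenitors, lies on chromosome 4 at 54229097 to 54298247 of GRCh38 (plus strand, ENSG00000134853). It had 161.6, 186.2 and 119.3 CPM in pseudopodia, 368.2, 468.4 and 514.5 CPM in cell body, and 581.0, 556.6 and 576.6 CPM in whole cell. The 3 groups stood apart in this order with no overlap, and the third pseudopodia library was the lowest of the 9. The log2 fold change was -1.53 ± 0.177 for pseudopodia against cell body (SE, adjusted p = 4.99e-05) and -1.88 ± 0.179 against whole cell (adjusted p = 6.88e-06). Between cell body and whole cell it was -0.34 with a 95% interval of -0.72 to 0.04 (adjusted p = 0.14 by edgeR). That last value passed the threshold in 4 of 20 alternative settings, among them the fit without pseudopodia replicate 3 (-0.33, edgeR adjusted p = 0.0358).

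PDGFRB, the receptor that marks pericytes and stromal cells and that binds PDGF-BB, lies on chromosome 5 at 150113837 to 150155872 (minus strand, ENSG00000113721). It had 866.8, 820.2 and 1150 CPM in pseudopodia, 1346, 1875 and 1750 CPM in cell body, and 1142, 1098 and 1141 CPM in whole cell. Cell body was highest with no overlap with the other groups, while the third pseudopodia library lay above and the other two below all whole-cell libraries. The log2 fold change was -0.81 ± 0.162 for pseudopodia against cell body (SE, adjusted p = 0.00231), and all 20 alternative settings kept that call. Against whole cell it was -0.25 with an interval of -0.61 to 0.10 (adjusted p = 0.194). On the TPM scale, however, every pseudopodia library (405.8 to 523.2 TPM) lay below every whole-cell library (707.8 to 767.9 TPM), and limma on log2(TPM + 1) gave -0.73 (adjusted p = 0.00137). On that scale the median log2 fold change over all genes tested was also negative, at -0.34. Without pseudopodia replicate 3 the edgeR log2 fold change against whole cell was -0.41 with an adjusted p of 0.0194, and in all 6 of 20 settings passed the threshold, each with a negative value. Cell body against whole cell gave 0.56 ± 0.162 (edgeR adjusted p = 0.0193), and this call was lost in 7 of 20 settings. It was lost without cell body replicate 2 (0.47, edgeR adjusted p = 0.0682), without cell body replicate 3 (0.54, 0.0532) and without any 1 of the whole-cell libraries (0.55 to 0.58, with adjusted p of 0.0545 to 0.0587). The TPM scale was the other case, with 0.37 from limma on log2(TPM + 1) (adjusted p = 0.0602), where the median over all genes tested was -0.15.

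PDGFRL, the receptor-like gene, lies on chromosome 8 at 17576433 to 17644071 (plus strand, ENSG00000104213) and was read 32 to 174 times per library. It had 0.462, 0.843 and 0.694 CPM in pseudopodia, 2.98, 2.24 and 2.39 CPM in cell body, and 1.18, 1.88 and 1.78 CPM in whole cell. Pseudopodia were lowest and cell body highest with no overlap between the 3 groups. The log2 fold changes were -1.93 ± 0.275 for pseudopodia against cell body (SE, edgeR adjusted p = 0.000235) and -1.27 ± 0.275 against whole cell (adjusted p = 0.00214). Cell body against whole cell gave a log2 fold change of 0.66 with an interval of 0.09 to 1.23 and an edgeR adjusted p of 0.0637, and 7 of 19 settings put it past the threshold. Those included the fits without any 1 pseudopodia library, with adjusted p of 0.0394 to 0.046. The 3′ end of PDGFRL overlaps MTUS1 on the opposite strand, which had 45 to 225 counts per library, and the strand setting of the counting is not given in the sources used here. The pseudogene PDGFRL2P had 21, 19 and 12 counts in pseudopodia, 0 in each cell body library, and 9, 1 and 2 in whole cell. PDGFRL values are therefore uncertain to the extent that reads were assigned to these neighbours and copies.

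Since a ratio within 1 library does not depend on a factor applied to the whole library, the receptors were also set against each other. PDGFRB exceeded PDGFRA in TPM by 7.18, 5.89 and 12.9 times in the pseudopodia libraries, by 4.89, 5.36 and 4.55 times in cell body, and by 2.63, 2.64 and 2.65 times in whole cell. The 3 groups did not overlap, and PDGFRA made up 11.3% ± 3.74 of the TPM of both receptors in pseudopodia, against 16.9% ± 1.14 in cell body and 27.5% ± 0.0667 in whole cell (SD, n = 3 each). The mean log2 ratio of PDGFRA to PDGFRB was lower in pseudopodia than in cell body by a difference of -0.73 and than in whole cell by -1.63. It was lower in cell body than in whole cell by -0.90. Each of the 3 two-sided exact permutation tests gave p = 0.1, the smallest that 3 against 3 libraries can give, and 0.1 after adjustment over the 3. Without pseudopodia replicate 3, the library with the ratio of 12.9, the difference from cell body was -0.40. PDGFRA and PDGFRB differ in GC content, and with offsets for GC content, a setting added after seeing the data, each difference was smaller. Pseudopodia then differed from cell body by -0.34 and from whole cell by -0.90, while cell body differed from whole cell by -0.56, each with an exact permutation p of 0.1.

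PDGFA, the chain that forms PDGF-AA, lies on chromosome 7 at 497258 to 520296 (minus strand, ENSG00000197461). It had 30.4, 22.1 and 22.9 CPM in pseudopodia, 18.9, 17.5 and 15.2 CPM in cell body, and 8.69, 8.68 and 9.43 CPM in whole cell. The 3 groups followed one another downward with no overlap, the reverse of the order of PDGFRA and PDGFC in CPM. The log2 fold change was 1.49 ± 0.161 for pseudopodia against whole cell (SE, edgeR adjusted p = 1.66e-05) and 0.95 ± 0.160 for cell body against whole cell (adjusted p = 0.00113), and each call held in all 20 alternative settings. For pseudopodia against cell body it was 0.55 ± 0.158 (edgeR adjusted p = 0.0174), and this call was lost in 6 of 20 settings, all with a positive value. On the TPM scale the groups overlapped, with 22.6, 17.0 and 16.2 TPM in pseudopodia against 17.0, 15.6 and 13.9 TPM in cell body, and limma on log2(TPM + 1) gave 0.24 (adjusted p = 0.203). The median over all genes tested was -0.17 on that scale. The call was also lost without pseudopodia replicate 1 (0.39, edgeR adjusted p = 0.0909), without cell body replicate 2 (0.56, 0.0527) and without cell body replicate 3 (0.47, 0.0793).

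PDGFA-DT, a noncoding gene that is transcribed away from the PDGFA start, did not share this order. It had 4, 0 and 8 counts in pseudopodia, 10, 6 and 7 in cell body, and 55, 24 and 38 in whole cell. It was lower than in whole cell both in pseudopodia (log2 fold change -2.99 ± 0.683, SE, edgeR adjusted p = 0.00288) and in cell body (-2.07 ± 0.619, adjusted p = 0.0217), where PDGFA was higher. It was described after its values had been seen.

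PDGFB, the chain of PDGF-BB, lies on chromosome 22 at 39223359 to 39244751 (minus strand, ENSG00000100311). It was counted 21, 10 and 24 times in pseudopodia, 14, 19 and 14 times in cell body, and 0, 0 and 1 time in whole cell. Pseudopodia and cell body overlapped, and every library of both lay above every whole-cell library. Summed over 3 libraries and scaled by library size, the ratio to whole cell was 62.8 in pseudopodia (55 counts against 1, 95% counting interval 10.8 to 2530) and 55.4 in cell body (47 against 1, 9.46 to 2230). The interval covers counting error only. Since PDGFB entered the fit through the groups in which it was high, its edgeR calls against whole cell are given no weight of their own. The fitted log2 fold changes of 5.53 and 5.30 depend on the count added to low values, and without whole cell replicate 3, which held the 1 read, they were 7.33 and 7.10. Pseudopodia against cell body gave a log2 fold change of 0.23 with an interval of -0.91 to 1.37 (edgeR adjusted p = 0.755). An antisense gene at the PDGFB start, AL031590.1, had 0 to 5 counts per library, and without strand its reads cannot be told apart from those of PDGFB. Platelets and endothelial cells are known for PDGF-B, and their marker lists did not move as one. Of the 8 endothelial genes, PECAM1 had 9.98 ± 1.15 CPM in pseudopodia and 8.27 ± 0.943 CPM in cell body against 3.45 ± 0.435 CPM in whole cell, and VWF had 14.7 ± 6.30 CPM in pseudopodia and 5.53 ± 2.03 CPM in cell body against 1.32 ± 0.232 CPM in whole cell. Both were called higher than in whole cell in both parts, the direction of PDGFB. Of the other 6, CDH5 (-2.39), TIE1 (-1.67) and EMCN (-2.10) were lower in pseudopodia than in whole cell, TEK was not called (-0.28), and KDR and CLDN5 were too low to test. Of the 7 haematopoietic and platelet genes, CD14 was higher than in whole cell in pseudopodia (0.57) and in cell body (2.28), PTPRC was lower in pseudopodia (-1.65), CD34 and ITGA2B were not called against whole cell, CD68 was too low to test, and PF4 and PPBP were at 0 in all 9 libraries. The part of these markers in the PDGFB values was not tested.

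PDGFC, a ligand with a CUB domain that binds the alpha receptor, lies on chromosome 4 at 156760454 to 156971394 (minus strand, ENSG00000145431). It had 14.2, 14.6 and 6.54 CPM in pseudopodia, 23.4, 26.1 and 26.9 CPM in cell body, and 29.2, 29.1 and 28.5 CPM in whole cell. The groups did not overlap, and the third pseudopodia library lay below the others of its group. The log2 fold change was -1.11 ± 0.251 for pseudopodia against cell body (SE, edgeR adjusted p = 0.00537) and -1.29 ± 0.252 against whole cell (adjusted p = 0.0012). Cell body against whole cell gave -0.18, with an interval of -0.73 to 0.36 (adjusted p = 0.585).

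PDGFD, the CUB-domain ligand of the beta receptor, lies on chromosome 11 at 103907186 to 104164379 (minus strand, ENSG00000170962). It had 2.69, 2.64 and 0.714 CPM in pseudopodia, 5.04, 6.07 and 6.57 CPM in cell body, and 6.60, 6.04 and 5.91 CPM in whole cell. Every pseudopodia library lay below the other 6, which overlapped, and the third was again the lowest. The log2 fold change was -1.54 ± 0.389 for pseudopodia against cell body (SE, edgeR adjusted p = 0.0114) and -1.61 ± 0.388 against whole cell (adjusted p = 0.00536). For cell body against whole cell it was -0.07, with an interval of -0.91 to 0.77 (adjusted p = 0.902).

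The transcripts of PDGFRA, PDGFC and PDGFD hold 42.9%, 40.5% and 41.2% G and C bases, against 52.2% in PDGFRL, 52.7% in PDGFA, 57.6% in PDGFRB and 60.6% in PDGFB (longest annotated transcript). Fits with an offset for GC content, added after the data had been seen, kept the calls of all 3 genes in pseudopodia and gave smaller differences. Against whole cell the log2 fold change was then -0.55 for PDGFC (edgeR adjusted p = 0.00536), -0.98 for PDGFD (0.00873) and -1.41 for PDGFRA (2.45e-06). Against cell body it was -0.76 for PDGFC, -1.26 for PDGFD and -1.29 for PDGFRA. With the same offsets PDGFRB was lower in pseudopodia than in whole cell (-0.52, edgeR adjusted p = 0.00283). Without pseudopodia replicate 3 the log2 fold change against cell body was -0.82 for PDGFC and -1.15 for PDGFD, and both remained called.

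The make-up of the 4 ligands, as shares of their summed TPM, differed between the groups; this summary was added after the data had been seen and carries no test. PDGFA made up 69.2% ± 8.74 of that sum in pseudopodia, against 39.8% ± 4.603 in cell body and 23.7% ± 1.23 in whole cell (SD, n = 3 each), and the groups did not overlap. PDGFC made up 24.1% ± 6.81 in pseudopodia, against 44.9% ± 2.83 in cell body and 58.7% ± 0.749 in whole cell, and PDGFD 5.65% ± 2.69, 14.6% ± 1.83 and 17.6% ± 0.878 in the same groups. PDGFA was thus the leading ligand mRNA in all 3 pseudopodia libraries and PDGFC in all 3 whole-cell libraries, while in cell body PDGFA led in replicate 1 and PDGFC in the other two. The sum itself was 27.2 ± 6.26 TPM in pseudopodia, 39.02 ± 0.7104 TPM in cell body and 38.4 ± 1.31 TPM in whole cell. The shares were not adjusted for GC content.

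**Figure D3:**
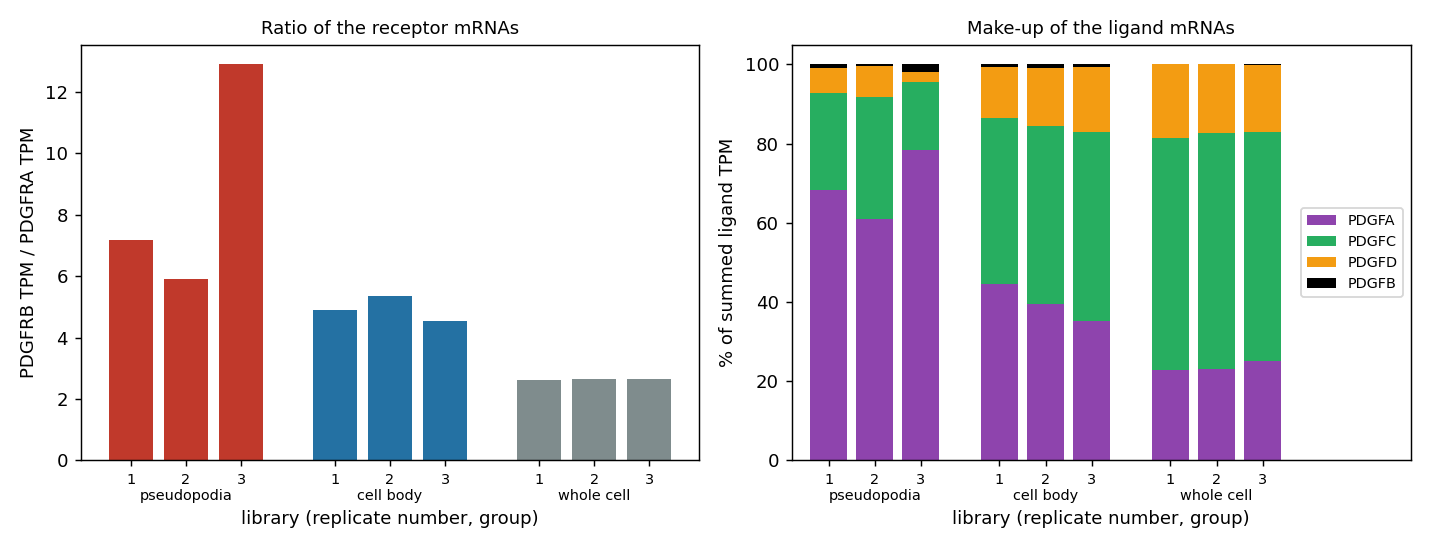
Left, TPM of PDGFRB divided by TPM of PDGFRA in each library. Right, share of the summed TPM of the 4 ligands held by each ligand in each library; the PDGFA share lies between 61.0% and 78.4% in pseudopodia, 35.3% and 44.5% in cell body and 22.8% and 25.1% in whole cell.

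Start regions of both receptors and of PDGFA are shown so that they can be set beside one another. The part of these sequences in the differences between pseudopodia and cell body was not tested. Windows of 300 bases, 250 before and 50 after an annotated start, were taken from RefSeq on GRCh38.p14, which held 8 such windows for 4 of the 7 genes (PDGFRA, PDGFRB, PDGFA and PDGFD). For each of the 3 genes the window with the most motif matches is printed, the first where they tied. Capitals mark the GC box bound by SP1-like factors (GGGCGG), the core of the site bound by early growth response factors (GCGGGGGCG) and the CCAAT box, each searched on both strands, and overlapping matches run together. The windows lie at chr4:54233710-54234009 on the plus strand for PDGFRA, at chr5:150155796-150156095 on the minus strand for PDGFRB and at chr7:520177-520476 on the minus strand for PDGFA.
PDGFRA: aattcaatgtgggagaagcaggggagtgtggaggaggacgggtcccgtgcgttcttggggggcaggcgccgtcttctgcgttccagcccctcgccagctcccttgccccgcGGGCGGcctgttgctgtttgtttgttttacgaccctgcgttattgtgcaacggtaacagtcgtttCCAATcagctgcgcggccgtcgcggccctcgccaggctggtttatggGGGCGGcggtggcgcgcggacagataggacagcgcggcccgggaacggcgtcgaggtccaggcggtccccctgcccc
PDGFRB: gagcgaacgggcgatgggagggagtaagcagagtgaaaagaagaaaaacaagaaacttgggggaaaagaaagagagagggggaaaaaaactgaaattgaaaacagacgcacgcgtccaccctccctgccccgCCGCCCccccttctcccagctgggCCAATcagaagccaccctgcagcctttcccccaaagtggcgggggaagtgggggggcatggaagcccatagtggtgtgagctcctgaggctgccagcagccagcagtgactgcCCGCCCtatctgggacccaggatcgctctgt
PDGFA: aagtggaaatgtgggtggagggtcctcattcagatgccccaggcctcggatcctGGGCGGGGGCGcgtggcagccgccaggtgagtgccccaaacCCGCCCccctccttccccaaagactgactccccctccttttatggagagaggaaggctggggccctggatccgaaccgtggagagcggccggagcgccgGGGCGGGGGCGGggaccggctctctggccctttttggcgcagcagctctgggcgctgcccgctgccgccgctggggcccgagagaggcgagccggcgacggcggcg

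The printed PDGFRA and PDGFRB windows each held 2 GC boxes and 1 CCAAT box. The PDGFA window held 4 GC boxes and 2 early growth response cores, which overlap some of the GC boxes, and no CCAAT box. These windows were picked for their number of matches, so the counts are not typical of a window. Of the 3 PDGFA windows not printed, 1 also held 4 GC boxes and 2 cores, 1 held 5 GC boxes alone, and 1 held 1 GC box and 1 CCAAT box. The printed PDGFRA window lies inside the gene span given above. The other PDGFRA window, at chr4:54229043-54229342, covers the outer start of that span. It held none of the 3 motifs and had 47.0% G and C. The PDGFD window held 1 GC box. Over all 35116 windows of this length, 45.0% held a GC box, 5.07% the early growth response core and 34.6% a CCAAT box. G and C made up 66.7% of the printed PDGFRA window, 59.3% of the PDGFRB window and 71.7% of the printed PDGFA window. These matches are letters in a window and not measured sites.

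Genes whose log2 CPM followed each member most closely over the 9 libraries were looked up among genes with a mean of at least 5 CPM. The 9 points are libraries of 3 groups and share the same scaling, so the coefficients describe the pattern and carry no test. PDGFRA was matched most closely by COL4A5 and MAN2A1 (Pearson r of 0.998 each) and CMTR2 (0.998), and PDGFRB by ECE1 (0.995), SLC38A12 (0.990) and ADAMTS15 (0.989). For PDGFRL they were PDIA5 (0.951), CLEC11A and SNHG1 (0.950 each). COL4A5, a collagen IV chain, averaged 21.6 CPM in pseudopodia, 80.3 CPM in cell body and 104 CPM in whole cell, the order seen for PDGFRA. ECE1, the endothelin-converting enzyme, averaged 334.7 CPM in pseudopodia, 594.6 CPM in cell body and 407.9 CPM in whole cell, with cell body highest as for PDGFRB.

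Among the ligands, PDGFA was matched by RPL30 (r of 0.990), EGR3 (0.985) and the gene ENSG00000227615 (0.984), and PDGFB by NFE2 (0.993) and ERF (0.990). PDGFB had only 0 to 24 reads per library, so its log2 CPM and these coefficients depend on the count added to low values. EGR3, an early growth response transcription factor, averaged 479.2 CPM in pseudopodia, 263.6 CPM in cell body and 63.7 CPM in whole cell. RPL30, a ribosomal protein gene with processed copies in the genome that may share its reads, averaged 225.6 CPM in pseudopodia, 172.6 CPM in cell body and 97.8 CPM in whole cell. PDGFC was matched by CAP2 (0.999), FAM8A1 (0.998) and GASK1B (0.997), and PDGFD by ABHD17B (0.996), SLC39A8 (0.996) and CDKN2AIP (0.995). CAP2, an actin-binding protein, averaged 34.9 CPM in pseudopodia, 72.6 CPM in cell body and 79.3 CPM in whole cell.

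The rest of the pathway was described by gene lists, each given by its counts and median. Over all genes tested, 18.6% were called higher and 19.9% lower in pseudopodia against cell body, 27.9% and 33.1% in pseudopodia against whole cell, and 18.1% and 20.5% in cell body against whole cell, with medians of -0.05, -0.12 and -0.06. Of 8 co-receptors and proteins that bind PDGF, all 8 were lower in pseudopodia than in cell body, with a median log2 fold change of -1.31. Among the lowest was the protease inhibitor and PDGF-binding protein A2M at -1.73 ± 0.120 (SE, edgeR adjusted p = 1.38e-06). Against whole cell 6 of the 8 were lower and 1 higher, with a median of -1.49. NRP1, a co-receptor for several growth factors, had -1.75 ± 0.2998 (edgeR adjusted p = 0.000774), and LRP1, an endocytic receptor that associates with PDGFRB, had -1.74 ± 0.202 (adjusted p = 2.85e-05). In cell body against whole cell 2 of the 8 were higher and 0 lower by edgeR, with a median of -0.09, and 1 was called without cell body replicate 2, without cell body replicate 3 or without any 1 whole-cell library. The matrix protein SPARC (0.38 ± 0.118, edgeR adjusted p = 0.024) lost its call in each of those fits. With upper-quartile factors SPARC was not called either (edgeR adjusted p = 0.0871), and 1 of the 8 was. SPARC also lost the call in limma on log2(TPM + 1) (adjusted p = 0.0774) and on log2(TPM + 0.1) (0.0778).

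Downstream of the receptors the direction differed. Of 27 adaptors and effectors tested, pseudopodia had 14 (51.9%) higher and 2 (7.41%) lower than cell body, with a median log2 fold change of 0.47. PTPN11, the SHP2 phosphatase that docks on both receptors, had 789.2 ± 198 CPM in pseudopodia against 98.96 ± 14.7 CPM in cell body (log2 fold change 3.00 ± 0.189, edgeR adjusted p = 7.76e-07), although pseudogene copies of it make the value uncertain. YES1, a SRC family kinase, had 1.67 ± 0.410 (adjusted p = 0.0105), and this call was lost with no filter on low counts (adjusted p = 0.0559). The adaptor CRKL was lower (-0.46 ± 0.156, edgeR adjusted p = 0.0379), but this call was lost in 10 of 20 settings. Against whole cell 13 (48.1%) were higher and 6 (22.2%) lower, with a median of 0.47. The regulatory PI3 kinase subunit PIK3R1 had 13.8 ± 2.51 CPM in pseudopodia and 8.77 ± 1.19 CPM in cell body against 62.7 ± 3.27 CPM in whole cell, and the docking protein GAB1 had 8.07 ± 2.83 CPM in pseudopodia and 8.70 ± 1.15 CPM in cell body against 31.6 ± 1.498 CPM in whole cell. SRC, the kinase itself, had 171.1 ± 41.4 CPM in pseudopodia, 113.4 ± 11.7 CPM in cell body and 53.2 ± 0.811 CPM in whole cell, and it was higher than in whole cell in both parts (1.69 and 1.09, with edgeR adjusted p of 9.24e-06 and 0.000576). In cell body against whole cell 4 adaptors (14.8%) were higher and 5 (18.5%) lower, shares near those of all genes tested, with a median of -0.11, and 5 in all were called without cell body replicate 3 or without any 1 whole-cell library, against 16 without pseudopodia replicate 3. STAT3 was among the 4 (0.53 ± 0.150, edgeR adjusted p = 0.0168) and lost its call without cell body replicate 2, without cell body replicate 3 or without any 1 whole-cell library, with adjusted p of 0.0515 to 0.0609. STAT3 also lost the call in limma on log2(TPM + 1) (adjusted p = 0.0699) and on log2(TPM + 0.1) (0.0743).

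Few of the genes that damp the receptors passed the test between pseudopodia and cell body. Of 11 inhibitors and phosphatases tested, pseudopodia had 0 higher and 1 lower than cell body, the lower one being LRIG1, a membrane protein that restrains receptor tyrosine kinases (-0.92 ± 0.186, edgeR adjusted p = 0.00238). The number called was 4 without pseudopodia replicate 2 and 3 without pseudopodia replicate 3. Against whole cell 6 (54.5%) were higher and 1 lower in pseudopodia, with a median of 0.46, and in cell body 6 (54.5%) were higher and 0 lower by edgeR, with a median of 0.53. SOCS1, a suppressor of cytokine signalling, had 6.03 ± 0.835 CPM in pseudopodia and 5.44 ± 0.451 CPM in cell body against 2.22 ± 0.296 CPM in whole cell. CBLB, a ubiquitin ligase, had a log2 fold change of 1.10 ± 0.154 in pseudopodia against whole cell (edgeR adjusted p = 0.000112), and the phosphatase PTPN1 had 1.23 ± 0.134 in cell body against whole cell (adjusted p = 6.85e-05). PTPN2, another phosphatase, was lower in pseudopodia than in whole cell (-1.41 ± 0.423, edgeR adjusted p = 0.0167), but not without pseudopodia replicate 1 (adjusted p = 0.0501), with GC offsets (0.0526) or with no filter (0.0960).

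Of the proteases that activate the ligands, 6 were tested. FURIN, the convertase for the A and B chains, had 407.3 ± 90.5 CPM in pseudopodia, 269.6 ± 30.3 CPM in cell body and 163.9 ± 4.11 CPM in whole cell. It was higher in pseudopodia than in whole cell (1.31 ± 0.161, edgeR adjusted p = 4.13e-05) and than in cell body (0.60 ± 0.159, adjusted p = 0.012), although not on the TPM scale for cell body (0.29, limma adjusted p = 0.108). With log2(TPM + 1) the median over all genes tested was -0.17 for pseudopodia against cell body. PLAT, tissue plasminogen activator, which removes the CUB domain of PDGF-C, had 17.9 ± 1.42 CPM in pseudopodia, 43.6 ± 4.49 CPM in cell body and 17.7 ± 0.242 CPM in whole cell, with a log2 fold change of -1.29 ± 0.1297 for pseudopodia against cell body (edgeR adjusted p = 1.8e-05) and 1.31 ± 0.1297 for cell body against whole cell (3.54e-05). In pseudopodia PCSK5, another convertase, was lower than in cell body (-1.94 ± 0.239, edgeR adjusted p = 8.01e-05). The urokinase PLAU, a plasminogen activator too, was higher in cell body than in whole cell (0.75 ± 0.129, adjusted p = 0.00124). The convertase PCSK6 was lower than in whole cell both in pseudopodia (-1.20 ± 0.375, edgeR adjusted p = 0.0165) and in cell body (-1.29 ± 0.379, adjusted p = 0.0199), but neither without whole cell replicate 2 (adjusted p of 0.0733 and 0.0788) nor, for cell body, without cell body replicate 1 (0.0653). The counts were 1 higher and 3 lower for pseudopodia against cell body, 1 and 2 against whole cell, and 3 and 1 for cell body against whole cell, with medians of -0.44, -0.23 and 0.23.

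**Figure D4:**
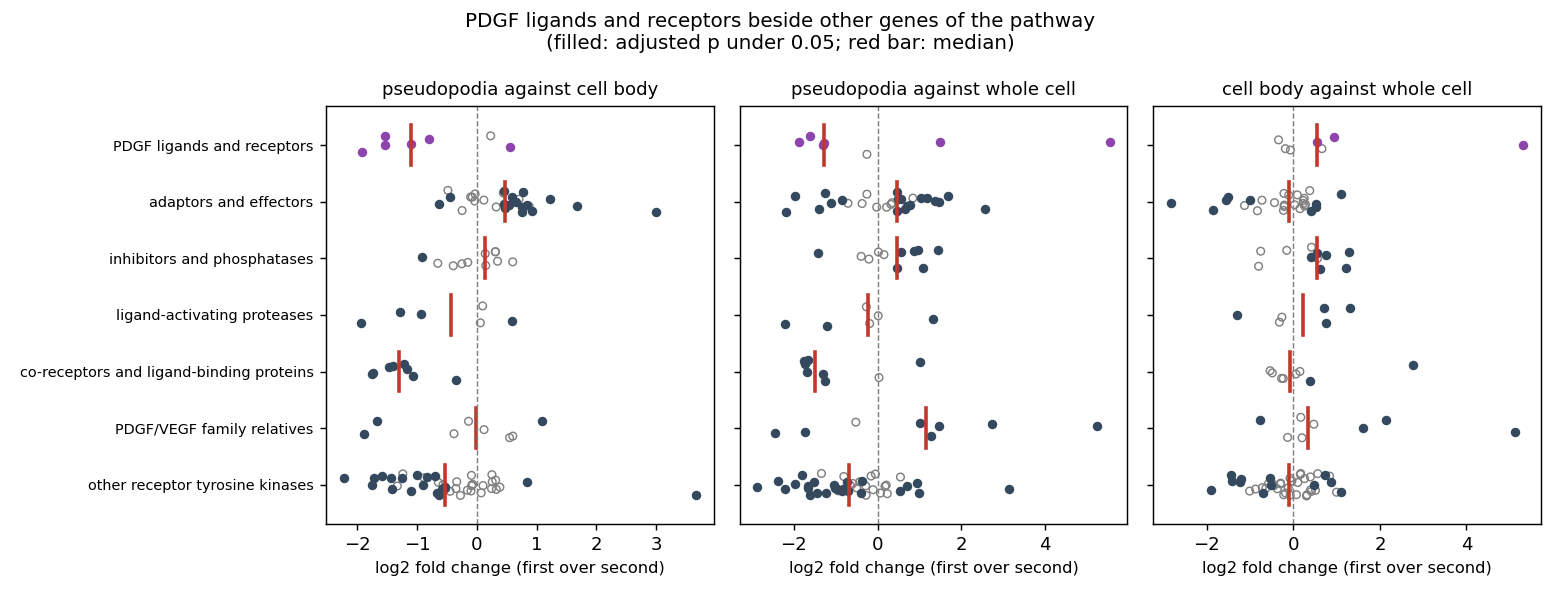
Log2 fold changes of the PDGF family (top row) and of 6 lists of related genes in the 3 comparisons; filled points have an edgeR adjusted p under 0.05, and red bars are medians. The co-receptors and ligand-binding proteins have a median of -1.31 for pseudopodia against cell body, and the adaptors and effectors 0.47.

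Among the relatives in the VEGF family and the receptors related to PDGFRA, 8 were tested. VEGFB was higher in pseudopodia than in cell body (1.09 ± 0.145, SE, edgeR adjusted p = 0.000146), and VEGFD (-1.90 ± 0.161, adjusted p = 5.18e-06) and the stem cell factor receptor KIT (-1.67 ± 0.192, adjusted p = 4.74e-05) were lower, so 1 was higher and 2 lower with a median of -0.01. PGF, placental growth factor, had 46.0 ± 13.9 CPM in pseudopodia and 42.3 ± 2.37 CPM in cell body against 1.22 ± 0.0968 CPM in whole cell. As with PDGFB, both parts thus stood above whole cell in every library of PGF, and the log2 fold changes were 5.24 ± 0.232 and 5.12 ± 0.231 (edgeR adjusted p of 4.85e-08 and 1.91e-07). Against whole cell 5 relatives were higher and 2 lower in pseudopodia, and 3 higher and 1 lower in cell body, with medians of 1.15 and 0.34. Among those, CSF1R, the receptor for colony-stimulating factor, had 2.21 ± 0.531 CPM in pseudopodia and 1.45 ± 0.154 CPM in cell body against 0.332 ± 0.0616 CPM in whole cell.

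The other receptor tyrosine kinases were more often lower than higher in pseudopodia. Of 42 tested, 2 (4.76%) were higher and 17 (40.5%) lower than in cell body, with a median of -0.53, and 5 (11.9%) were higher and 20 (47.6%) lower than in whole cell, with a median of -0.68. PDGFRA's fold change against cell body (-1.53) lay near those of the hepatocyte growth factor receptor MET (-1.73) and PTK7 (-1.59), and PDGFRB's (-0.81) near those of EGFR (-0.84) and AXL (-0.71), 4 genes named after their values had been seen. DDR2, a collagen receptor that is also on the protrusion list, stood apart with 3631 ± 893 CPM in pseudopodia against 284.7 ± 49.9 CPM in cell body (3.67 ± 0.204, edgeR adjusted p = 3.62e-07). TIE1 was lowest against cell body (-2.23 ± 0.255, edgeR adjusted p = 4.68e-05), and the ephrin receptor EPHA5 was lowest against whole cell (-2.87 ± 0.320, adjusted p = 5.2e-05), followed by MET (-2.37 ± 0.313, adjusted p = 0.000153). FGFRL1, a receptor with no kinase domain, was higher against whole cell (0.99 ± 0.152, edgeR adjusted p = 0.000213). In cell body 4 (9.52%) were higher and 8 (19.0%) lower than in whole cell, with a median of -0.10, where 18.1% and 20.5% of all genes tested were, so the share lower lies near that of all genes. Among these, AATK had 1.10 ± 0.231 (edgeR adjusted p = 0.00395), the ephrin receptor EPHB2 had 0.87 ± 0.207 (adjusted p = 0.00712), and MUSK had -1.89 ± 0.629 (adjusted p = 0.0343), a call that was lost without any 1 of the cell body or whole-cell libraries. The second gene called higher against cell body, LMTK3 (0.85 ± 0.243, edgeR adjusted p = 0.0173), lost its call without cell body replicate 2 (adjusted p = 0.0703), without cell body replicate 3 (0.0516) and with GC offsets (0.141). It also lost the call in limma on log2(TPM + 1) (adjusted p = 0.0669) and on log2(TPM + 0.1) (0.106).

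Markers of other cell types were summed in the same way. The adipocyte list summed to 0.697 to 0.890 TPM in pseudopodia, 0.491 to 0.936 TPM in cell body and 1.51 to 1.88 TPM in whole cell, with FABP4 at 0 in all 9 libraries. The endothelial list summed to 39.1 to 50.4 TPM in pseudopodia, 61.0 to 86.1 TPM in cell body and 68.2 to 73.0 TPM in whole cell. The haematopoietic and platelet list summed to 30.6 to 36.5, 55.1 to 60.9 and 39.4 to 41.3 TPM in the same groups. The pericyte and smooth muscle list, whose cells are known for PDGFRB, summed to 365 to 473.8 TPM in pseudopodia, 587.9 to 641.8 TPM in cell body and 448.8 to 483.5 TPM in whole cell. Cell body was highest, as for PDGFRB, while the sums of pseudopodia and whole cell overlapped. The part of this list in the PDGFRB result was not tested. Of that list's 10 genes, pseudopodia had 3 higher and 3 lower than cell body. TAGLN was the highest of them by CPM, with 517.4 CPM in pseudopodia, 562.2 CPM in cell body and 404.2 CPM in whole cell. The epithelial list summed to 213.5 to 282 TPM in pseudopodia, 252 to 297.6 TPM in cell body and 151 to 160.4 TPM in whole cell, and 3 of its 6 genes were under 1 TPM in every library of each group. In pseudopodia KRT8 had 157.1 CPM and KRT18 149.2 CPM, while CLDN4 had 3.64 CPM and EPCAM, CDH1 and KRT19 averaged under 1 CPM.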

How the data were processed

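RNA sequencing of 9 libraries was analysed from the deposited files. The authors deposited whole-number read counts per gene, made with featureCounts per the labels. The authors also deposited TPM per library, which matched the counts up to a length per gene and a constant per library (largest relative deviation 5.0e-14). The submitters' processing notes name GRCh38 and DESeq2. Not given in the sources used here are the aligner, the annotation, the strand setting and the versions. The table held 62709 genes with values and 1 line without, which was left out.

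Counts were compared in edgeR 4.0.16 (R 4.3.3) with TMM factors, the expression filter by group (19426 genes left) and the robust quasi-likelihood test, with all 9 libraries in 1 fit and Benjamini-Hochberg adjusted p-values called under 0.05. CPM are scaled by TMM, and TPM were used to compare levels between genes. Standard errors come from the test statistic, and intervals are at 95%. A two-sided exact permutation test was run on the receptor ratios. The fits were tried on simulated counts, where a larger share of false calls was let pass for DESeq2 than for edgeR or limma-voom. The rates of recovery and of false calls are not reported here. Positions come from GENCODE release 29 and sequences from RefSeq.

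The members and lists were chosen with earlier results of these data known. Named were all 7 members, the 3 genes closest in pattern to each, and from each list the called genes with the 2 highest and 2 lowest fold changes; other names are marked as chosen later, and some genes that the rule picks are not reported here. Alternatives were other scalings and filters, DESeq2 1.42.0, limma 3.58.1 (voom with sample weights, and log2 of TPM plus 1 or 0.1), only the 6 libraries compared, a replicate block, GC offsets (added after seeing the data) and leaving out each library. No 2 replicates were as close as counting noise (lowest chi-square per gene 5.07), so each counted once.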

Additional observations from a re-analysis of the deposited data

How the results depend on the processing

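Over 20 alternative settings, values of single members kept direction and side of the threshold in 376 cases, lost the call in 13, gained it in 17 and reversed in 7, none of them called. For PDGFB, pseudopodia against cell body, the reversed values were -0.0135 with log2(TPM + 1), -0.0913 with log2(TPM + 0.1) and -0.1947 without pseudopodia replicate 3 (leaving out 1 library gave -0.1947 to 0.594). In cell body against whole cell, PDGFD had 0.0014 with no filter, 0.278 with GC offsets and 0.0423 without cell body replicate 1 (-0.1271 to 0.0423 with 1 library left out), and PDGFC had 0.215 with GC offsets; the cause was not tested. The count of members called stayed within 1.5 times of 6 for pseudopodia against cell body and of 6 against whole cell. Between cell body and whole cell it was 5 with limma-voom, 5 with only the 6 libraries, and 2 to 5 with 1 library left out, against 3. PDGFRL and PDGFB were not tested with the filter of 5 CPM in 3 libraries, nor PDGFB in pseudopodia against whole cell with only the 6 libraries.

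No pairing of samples by replicate number was seen. Same-numbered deviations from the group means correlated at -0.0807 to 0.0901, and not every library correlated best with its own number. With 3 libraries per group this cannot show that the samples were unpaired. With the numbers as a replicate block, 6, 6 and 3 members were called in the 3 comparisons, and the smallest p for the receptor ratio was 0.25. Over all genes, the filter of 5 CPM called 7516 for pseudopodia against whole cell (11842 without it) and 4667 for cell body against whole cell (7501), where limma-voom called 11967. On log2(TPM + 1) the share of calls that were higher was 28.1%, 25.0% and 30.9% in the 3 comparisons, against 48.2%, 45.7% and 46.9%, and the median over all genes moved to -0.17, -0.34 and -0.15. Counts of list genes moved by over 1.5 times in 35 cases and less in 385. For cell body against whole cell, adaptors called numbered 9, but 23 with limma-voom and 19 with the 6 libraries, and other receptor tyrosine kinases 12, but 24 and 20. For pseudopodia against cell body, inhibitors called numbered 1, but 2 with the 5 CPM filter, 4 on either TPM scale, 5 with limma-voom and 5 with GC offsets; adaptors 16, but 8 with the 6 libraries; VEGF relatives 3, but 6 with limma-voom and 5 on TPM. At 10 to 24 reads per library, PDGFB differences between pseudopodia and cell body are limited by depth.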
